A study of Mus musculus with 6 samples.

Results

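Horizontal basal cells (HBCs) are described here through 10 genes that are used as their markers: Krt5, Krt14, Krt15, Krt17, Trp63, Icam1, Itga6, Itgb4, Col17a1 and Egfr. They were taken by name, with no threshold on a measured value, from the 24661 genes that the 6 expression files hold. All 10 were found and all 10 had enough counts to be tested. HBCs are flat cells that lie on the basal lamina of the olfactory epithelium. They divide rarely in the intact tissue and serve as its reserve stem cells, while the globose basal cells above them supply new olfactory sensory neurons (OSNs) from day to day. After severe injury HBCs leave their resting state, lose the transcription factor p63 and give rise to both neurons and non-neuronal cells.

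The libraries came from 3 wild-type mice and 3 mice that lack both receptor transporting proteins, Rtp1 -/-; Rtp2 -/- (RTP1,2DKO). These proteins help odorant receptors reach the cell surface of OSNs. The labels give all mice as C57BL/6 at post natal day 21, and the methods add that the mice were littermates, 2 males and 1 female in each genotype. The whole olfactory mucosa was taken, which holds tissue around the epithelium as well, and the mutant line carries the deletion in every cell. The embryonic stem cells that were targeted came from a 129/B6 hybrid line, and the coding regions of both genes were replaced.

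The libraries held 31125410 to 41636996 estimated counts. A single gene, Bpifb9b, took 4.81% to 13.7% of a library, and the size factors lay between 0.907 and 1.15. Rtp1 had 20522, 25301 and 13543 normalized counts in the wild-type (mice 1, 2 and 3 in turn, as in every such series here), against 90.6, 85.5 and 108.8 in RTP1,2DKO. Rtp2 had 8497, 9511 and 7157 against 58, 26.2 and 51. Both followed the labelled genotype in every library. Xist, a transcript of female cells, had 73674 and 66368 normalized counts in replicate 2 of the wild-type and of RTP1,2DKO, and at most 154.9 in the others. Of the 22152 genes tested with edgeR's quasi-likelihood test, 799 passed a Benjamini-Hochberg adjusted p of 0.05, which is 3.61% of them, with 102 (0.46%) higher and 697 (3.15%) lower in RTP1,2DKO.

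The question behind this comparison was whether reserve stem cells answer a loss of OSNs. All 8 genes of mature OSNs had log2 fold changes below 0 in RTP1,2DKO against wild-type, with a median of -1.07. Of the 8, 7 passed the test (Omp, Gnal, Adcy3, Cnga2, Cnga4, Cngb1 and Stoml3), against 3.15% of all genes called lower. The gene that did not pass was at -0.76 (edgeR adjusted p = 0.0857). Among the HBC genes, 0 of 10 passed the test, against the background of 3.61%. None reached an unadjusted p of 0.05 either, which 11.8% of all genes did. DESeq2's Wald test called 0 of the 10 (5.81% of all genes), as did a fit with the replicate number as a block (4.57% of all genes) and a fit with TMM normalization. For every HBC gene the values of the 3 RTP1,2DKO mice overlapped those of the 3 wild-type mice, while 16.4% of all genes tested had no overlap.

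The log2 fold changes of the 10 genes, given throughout as RTP1,2DKO minus wild-type, ran from -0.04 for Krt14 to 0.30 for Krt17. They were above 0 for 7 genes and below 0 for 3. Their median was 0.13, and the median over all genes tested was 0.02. A p that misses the threshold does not show that the genotypes were alike, so the 95% interval of each change is given with it. The interval of Krt17 reached a 2-fold increase, those of 3 genes (Krt5, Krt15 and Krt17) reached a 1.5-fold increase, and that of 0 genes reached a 2-fold decrease. These are intervals of the edgeR fit, where the standard errors of Krt5, Krt15 and Krt17 were 0.31, 0.31 and 0.33. DESeq2 gave 0.52 for each of these 3 genes, so its intervals for them would be wider. In whole tissue, fewer cells of a type and less RNA per cell cannot be told apart. RTP1,2DKO mouse 3 was the highest of the 6 mice for 7 of the 10 genes, and without it the changes of Krt5 (-0.31), Krt15 (-0.56), Itgb4 (-0.16) and Col17a1 (-0.06) turned below 0. With 3 mice against 3, an exact permutation test of one gene cannot give a p under 0.1.

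**Figure D1:**
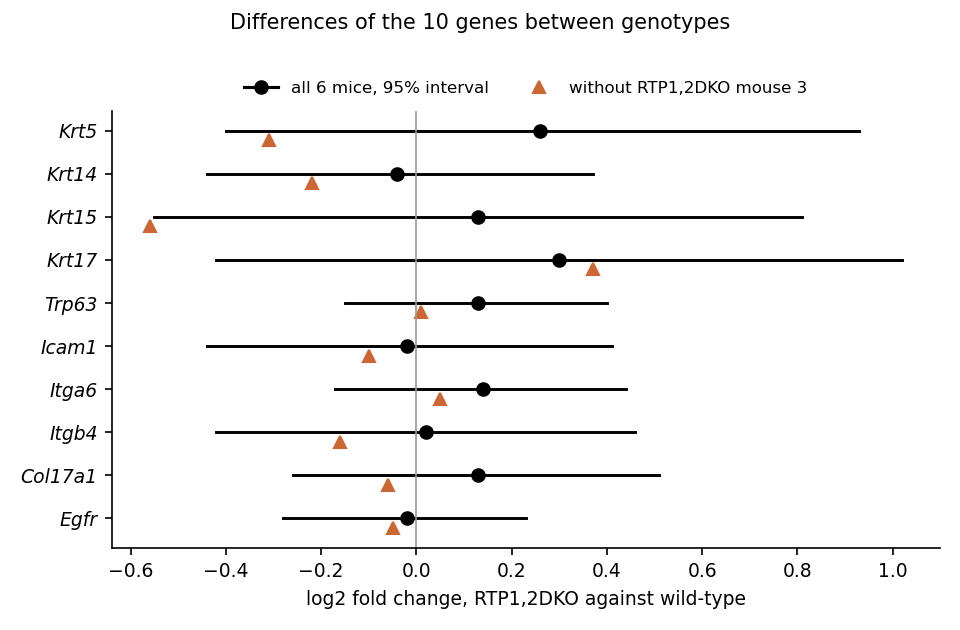
Log2 fold change (RTP1,2DKO minus wild-type) of each HBC gene with its 95% confidence interval from edgeR's quasi-likelihood fit (black), and the value without RTP1,2DKO mouse 3 (orange triangles). All 10 intervals include 0, the interval of Krt17 is the widest and ends at 1.02, and those of Egfr and Trp63 are the narrowest; without mouse 3 Krt15 falls to -0.56.

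Krt5, Krt14, Krt15 and Krt17 are keratins, the proteins of the intermediate filaments in basal cells of stratified and pseudostratified epithelia. Krt5 is a type II keratin that pairs with the type I keratin Krt14. Krt15 is a further type I keratin of basal cells, and Krt17 is a type I keratin found in basal and wounded epithelium. Type I keratin genes lie side by side on chromosome 11 and are alike in sequence, which bears on how reads were shared out among them. In RefSeq annotation of GRCm38, Krt14 (chr11:100203162-100207510), Krt15 (chr11:100131759-100135949) and Krt17 (chr11:100256215-100261029) are neighbours, while Krt5 (chr15:101707069-101712905) lies elsewhere. To show how close they are, 90 bases of exon 6 of Krt14 are printed with the matching bases of Krt15, of Krt17 and of the wound keratin Krt16, each on the minus strand of chromosome 11, with bases that differ from Krt14 in capitals.
Krt14: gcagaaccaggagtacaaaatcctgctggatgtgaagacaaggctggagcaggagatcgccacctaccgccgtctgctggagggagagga
Krt15: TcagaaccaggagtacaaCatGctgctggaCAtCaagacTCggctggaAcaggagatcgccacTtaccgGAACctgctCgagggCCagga
Krt16: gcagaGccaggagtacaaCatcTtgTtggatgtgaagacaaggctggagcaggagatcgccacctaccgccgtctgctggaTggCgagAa
Krt17: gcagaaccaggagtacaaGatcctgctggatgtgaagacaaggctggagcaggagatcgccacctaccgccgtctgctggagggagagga

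These stretches lie at chr11:100204114-100204203, chr11:100132997-100133086, chr11:100246616-100246705 and chr11:100257439-100257528 (GRCm38) in the order printed. Over the 90 bases Krt17 differs from Krt14 at 1, Krt16 at 7 and Krt15 at 17. The longest run that Krt14 shares with Krt16 has 134 bases, with Krt17 71 bases and with Krt15 28 bases. Of the 31-base words of each gene's annotated transcripts, 71.8% occur in no other gene for Krt14, 84.2% for Krt17, 84.2% for Krt5 and 96.3% for Krt15. Krt5 shares words most with Krt6a, another type II keratin of wounded epithelium. The values of Krt14, and to a lesser degree of Krt17 and Krt5, therefore rest in part on how kallisto divided such reads, and how much they owe to it was not tested. Among the HBC genes that are not keratins, the lowest such percentage was 85.2%, for Icam1, which shared words with 3131 other genes. What this did to the counts of Icam1 was not tested either.

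Krt5 had 924.8, 1106 and 1620 normalized counts in the wild-type. Its counts in RTP1,2DKO were 960.0, 1006 and 2415. Only RTP1,2DKO mouse 3 lay above the wild-type range, and the other 2 RTP1,2DKO mice fell inside it. The means were 1217 ± 361 in the wild-type and 1460 ± 827 in RTP1,2DKO (SD, n = 3 each). The log2 fold change was 0.26 (SE 0.31, 95% interval -0.40 to 0.93, edgeR adjusted p = 0.84). Without RTP1,2DKO mouse 3 it turned to -0.31 (edgeR adjusted p = 0.783).

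Krt15 showed the same single high mouse more sharply. It had 1210, 1195 and 1343 normalized counts in the wild-type and 840.9, 852.0 and 2405 in RTP1,2DKO. Here 2 RTP1,2DKO mice lay below every wild-type mouse, and the third lay above all of them. The means were 1249 ± 81.5 and 1366 ± 900 (SD, n = 3 each), and the log2 fold change was 0.13 (SE 0.31, 95% interval -0.55 to 0.81, edgeR adjusted p = 0.941). Without RTP1,2DKO mouse 3 the change was -0.56 (SE 0.15, edgeR adjusted p = 0.0713), the lowest adjusted p of any HBC gene with a mouse left out, and 1 of the 10 genes then had an unadjusted p under 0.05. With the replicate number as a block it was -0.06. The direction for Krt15 thus rested on that mouse.

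Krt14 was lower in level than Krt5 and Krt15, and its coefficient of variation (SD over mean) was 12.3% in the wild-type and 23.8% in RTP1,2DKO. Its normalized counts were 395.1, 473.2 and 503.9 in the wild-type and 341.4, 443.0 and 553.7 in RTP1,2DKO, so the RTP1,2DKO mice held both the lowest and the highest value. Its log2 fold change was -0.04 (SE 0.19, 95% interval -0.44 to 0.37, edgeR adjusted p = 0.976). It ran from -0.22 without RTP1,2DKO mouse 3 to 0.12 without RTP1,2DKO mouse 1. The files split Krt14 over 3 transcripts, and the share of the first of them varied from 26.5% to 87.5% of the gene's counts between mice, so only the sum over transcripts is used.

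Krt17 varied most among the HBC genes of the wild-type. It had 396.2, 540.0 and 192.9 normalized counts in wild-type mice and 305.6, 671.5 and 414.5 in RTP1,2DKO mice. Replicate 2 was the highest in each genotype, and wild-type mouse 3 was the lowest of all 6. The log2 fold change of 0.30 was the largest of the 10 and had the widest interval (SE 0.33, 95% interval -0.42 to 1.02, edgeR adjusted p = 0.831). It was -0.01 without wild-type mouse 3 and -0.07 without RTP1,2DKO mouse 2, so either of these mice set its sign. Replicate 2 was also the one with Xist counts in each genotype, and the part of this in Krt17 was not tested.

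**Figure D2:**
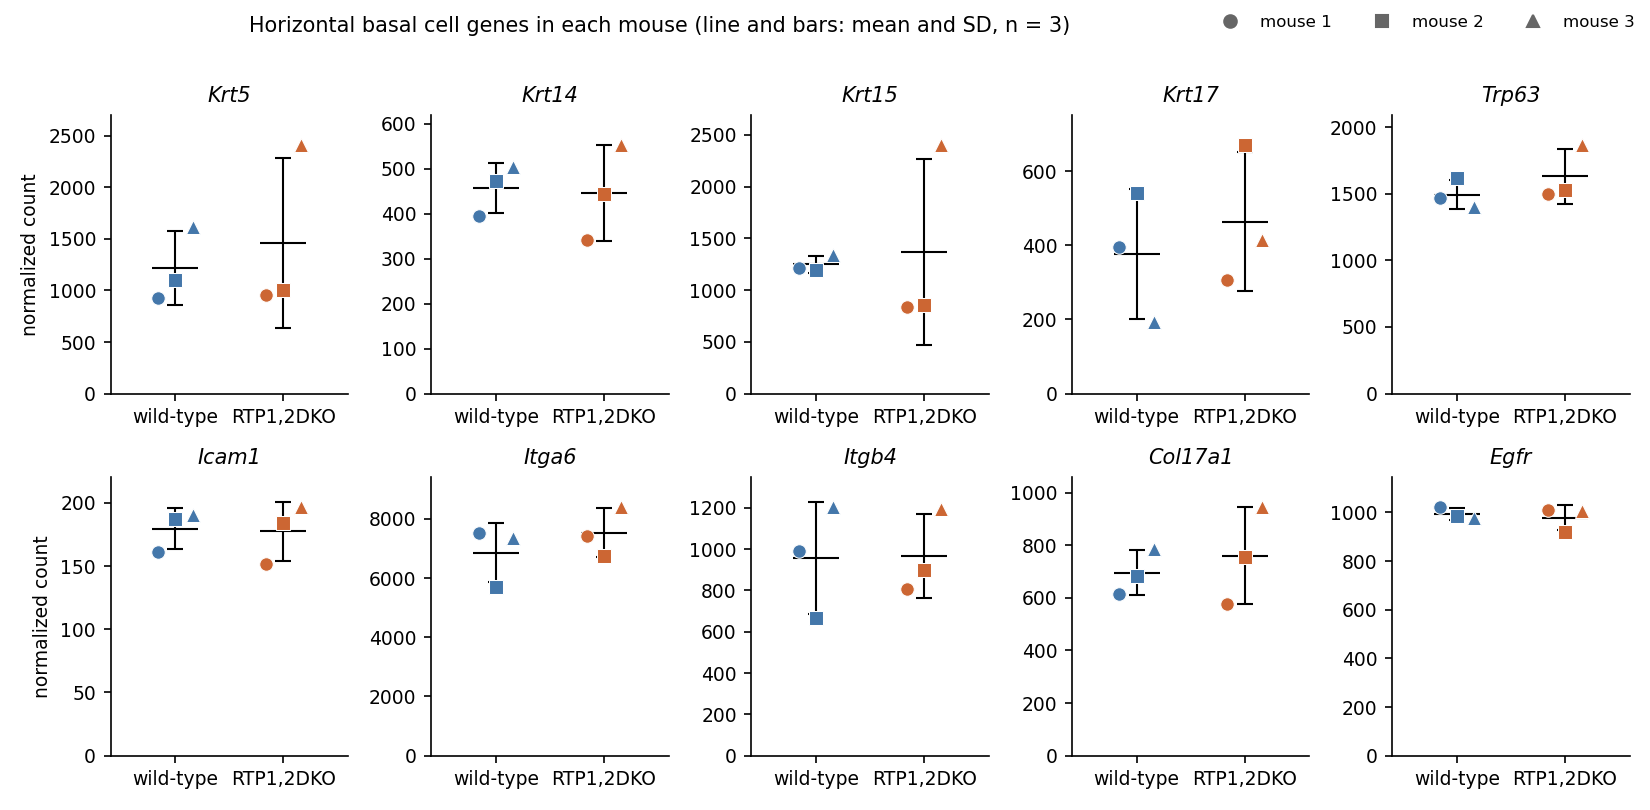
Normalized counts of each HBC gene by genotype, with 1 point per mouse (shape gives its replicate number) and the group mean with its SD (n = 3). The genotypes overlap in all 10 panels, and RTP1,2DKO mouse 3 stands apart for Krt5 (2415) and Krt15 (2405).

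Trp63 encodes p63, the transcription factor that holds HBCs at rest, and its loss from HBCs precedes their activation. It lies at chr16:25683763-25892088 (GRCm38), 2.25 Mb from Rtp1 and 1.75 Mb from Rtp2 on the same chromosome. Trp63 had 1468, 1616 and 1398 normalized counts in the wild-type and 1496, 1527 and 1869 in RTP1,2DKO. Of the 3 RTP1,2DKO mice, 2 fell within the wild-type range and mouse 3 lay above it. The means were 1494 ± 111 and 1631 ± 207 (SD, n = 3 each). The log2 fold change was 0.13 (SE 0.13, edgeR adjusted p = 0.806), and the interval of -0.15 to 0.40 corresponds to 0.902 to 1.32 times the wild-type level. It stayed between 0.01 and 0.19 when each mouse was left out.

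Transcripts of Trp63 start at either of 2 sites. The upstream start gives TAp63, with a transactivation domain, and the downstream start gives ΔNp63, the form of basal cells. The files list 8 transcripts under this gene, and 3 of them, of 4625, 4710 and 4707 bases, held at least 99.0% of its counts in every mouse. The files do not say which start each transcript uses. Only 2 of the 8 match a GENCODE transcript exactly in length. A 2380-base transcript, which matches one from the upstream start, was at 0 in every mouse, and a 1729-base transcript, which matches one from the downstream start, had 9.2 normalized counts in wild-type mouse 1 and 0 elsewhere. The full-length transcripts in GENCODE have 5257 and 5366 bases from the upstream start and 4691 and 4703 bases from the downstream start, and the 2 longest transcripts in the files, of 5288 and 5382 bases, had at most 6.28 estimated counts in a mouse.

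The 4625-base transcript took 85.6%, 55.8% and 62.3% of the Trp63 counts in the wild-type, against 34.2%, 37.8% and 22.8% in RTP1,2DKO. Its share was lower in every RTP1,2DKO mouse than in any wild-type mouse. In a fit on all transcripts, added after the data were seen, its log2 fold change was -1.0 (SE 0.20) with an edgeR adjusted p of 0.241, and of 0.606 with the replicate number as a block. That fit called 8 of 33023 transcripts (0.0242%), and 14.1% of all transcripts had no overlap between the groups in normalized counts (either direction). The same background for shares within a gene was not computed. Trp63 lies near both targeted genes, which were altered in hybrid embryonic stem cells. The part of linked sequence in the share of the 4625-base transcript was not tested. The other 2 differ by 3 bases in length and varied widely between mice of one genotype. The 4707-base transcript ranged from 1.0 to 661.5 normalized counts, and the 4710-base transcript from 2.2 to 762.8.

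**Figure D3:**
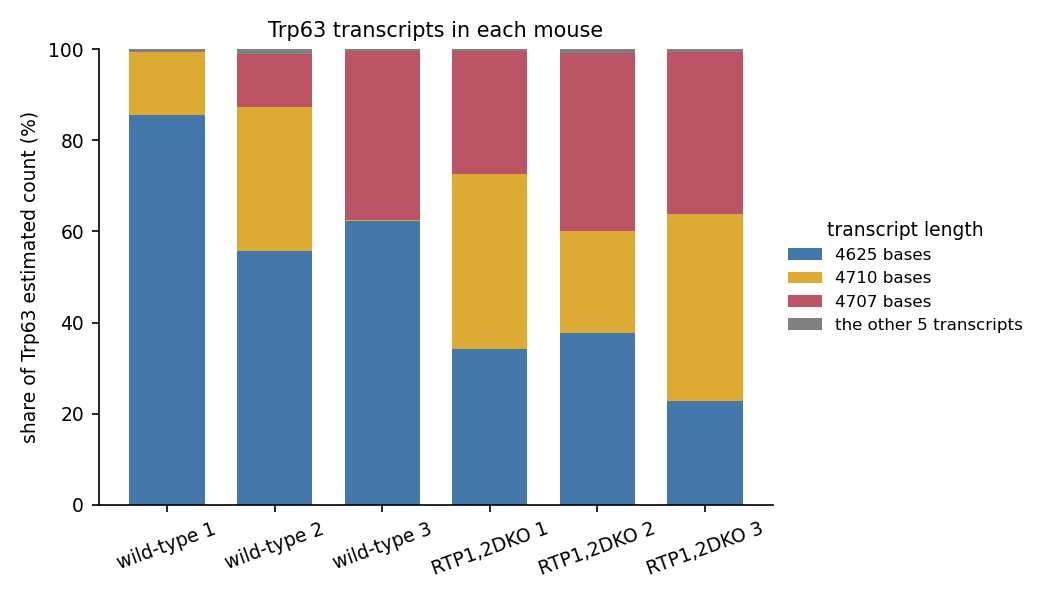
Share of the estimated Trp63 count (%) that each transcript took in each mouse, as stacked bars with the 3 main transcripts named by their length in bases and the other 5 summed. The 4625-base transcript took 55.8% to 85.6% in wild-type mice and 22.8% to 37.8% in RTP1,2DKO mice, while the gene's summed count overlapped between genotypes.

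Itga6, Itgb4 and Col17a1 encode proteins of the hemidesmosome, which anchors basal cells to the basal lamina. Integrin α6 and integrin β4 form one receptor for laminin, and collagen XVII spans the membrane beside it. Itga6 (chr2:71786886-71858427) had 7518, 5703 and 7343 normalized counts in the wild-type and 7427, 6749 and 8407 in RTP1,2DKO. Wild-type mouse 2 was the lowest and RTP1,2DKO mouse 3 the highest. Its log2 fold change was 0.14 (SE 0.14, 95% interval -0.17 to 0.44, edgeR adjusted p = 0.812).

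Itgb4 (chr11:115974725-116008412) had 993.0, 666.9 and 1205 normalized counts in the wild-type and 808.2, 900.0 and 1196 in RTP1,2DKO, where all values fell within the wild-type range. Its log2 fold change was 0.02 (SE 0.20, 95% interval -0.42 to 0.46, edgeR adjusted p = 0.988). It was -0.18 without wild-type mouse 2 and -0.16 without RTP1,2DKO mouse 3. In TPM, which allows levels of different genes to be compared, Itga6 stood 7.56 ± 1.26 times above its partner Itgb4 in the wild-type and 8.06 ± 1.14 times in RTP1,2DKO (SD, n = 3 each). Integrin α6 also pairs with integrin β1, which many other cells carry.

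Col17a1 (chr19:47646341-47692042) had 616.5, 684.1 and 787.2 normalized counts in the wild-type and 577.5, 757.0 and 946.6 in RTP1,2DKO. RTP1,2DKO mice held both ends of the range. The log2 fold change was 0.13 (SE 0.18, 95% interval -0.26 to 0.51, edgeR adjusted p = 0.865), and it was -0.06 without RTP1,2DKO mouse 3.

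Icam1 and Egfr are surface proteins by which HBCs are often stained or sorted. ICAM1 binds leukocyte integrins and is also made by endothelium, and EGFR is the receptor for epidermal growth factor and its relatives. Icam1 (chr9:21015940-21028814) had 161.4, 187.0 and 190.7 normalized counts in the wild-type and 151.7, 184.0 and 197.0 in RTP1,2DKO, the fewest of the 10 genes. Replicate 1 was the lowest and replicate 3 the highest in each genotype. The change of Icam1 was -0.02 on the log2 scale (SE 0.20, 95% interval -0.44 to 0.41, edgeR adjusted p = 0.991), and it lay between -0.10 and 0.08 when each mouse was left out.

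Egfr (chr11:16752203-16913907) had 1023, 985.6 and 975.8 normalized counts in the wild-type and 1012, 919.2 and 1004 in RTP1,2DKO. The 6 mice were closer together than for any other HBC gene, and RTP1,2DKO mouse 3, the highest for 7 of the 10 genes, lay within the wild-type range. Its log2 fold change was -0.02 (SE 0.12), with a 95% interval of -0.28 to 0.23 that corresponds to 0.824 to 1.17 times the wild-type level (edgeR adjusted p = 0.975).

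Levels per length were compared in TPM over the 6 mice. Itga6 was the most abundant with a mean of 39.0 TPM, followed by Krt15 (32.0), Krt5 (23.0), Krt14 (15.0), Krt17 (12.2), Trp63 (11.3), Egfr (5.82), Itgb4 (5.03), Col17a1 (4.22) and Icam1 (2.56). Krt15 was above Krt5, Krt5 above Krt14, Trp63 above Egfr and Col17a1 above Icam1 in all 6 mice. Krt17 and Trp63 changed places, with Krt17 above in 3 of 6 mice, and Egfr was above Itgb4 in 4 of 6. The 10 genes together summed to 126 to 177 TPM in the wild-type and 123 to 169 TPM in RTP1,2DKO.

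The median gene was lower in RTP1,2DKO on the deposited TPM scale, where every library has the same sum. Over genes whose mean reached 10 counts, the median log2 ratio of RTP1,2DKO to wild-type was -0.22 in TPM and 0.01 in normalized counts. On the TPM scale the changes of Krt15 (-0.18), Trp63 (-0.17), Itga6 (-0.09), Itgb4 (-0.19), Col17a1 (-0.13) and Krt17 (-0.06) were negative, while that of Krt5 was 0.01. Each of these 7 lay above the median of all genes on that scale, and Krt14 (-0.37), Icam1 (-0.27) and Egfr (-0.24) lay below it.

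The genes did not vary alike between mice of one genotype. The coefficient of variation in RTP1,2DKO was 65.9% for Krt15 and 56.6% for Krt5, higher than for 99.4% and 98.9% of the 15430 genes whose mean reached 50 counts. In the wild-type it was 6.52% for Krt15 and 29.6% for Krt5. Krt17 varied widely in both genotypes, at 46.3% and 40.5%. Egfr varied by 2.51% and 5.26%, below the medians of 13.5% and 10.7% over those genes.

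**Figure D4:**
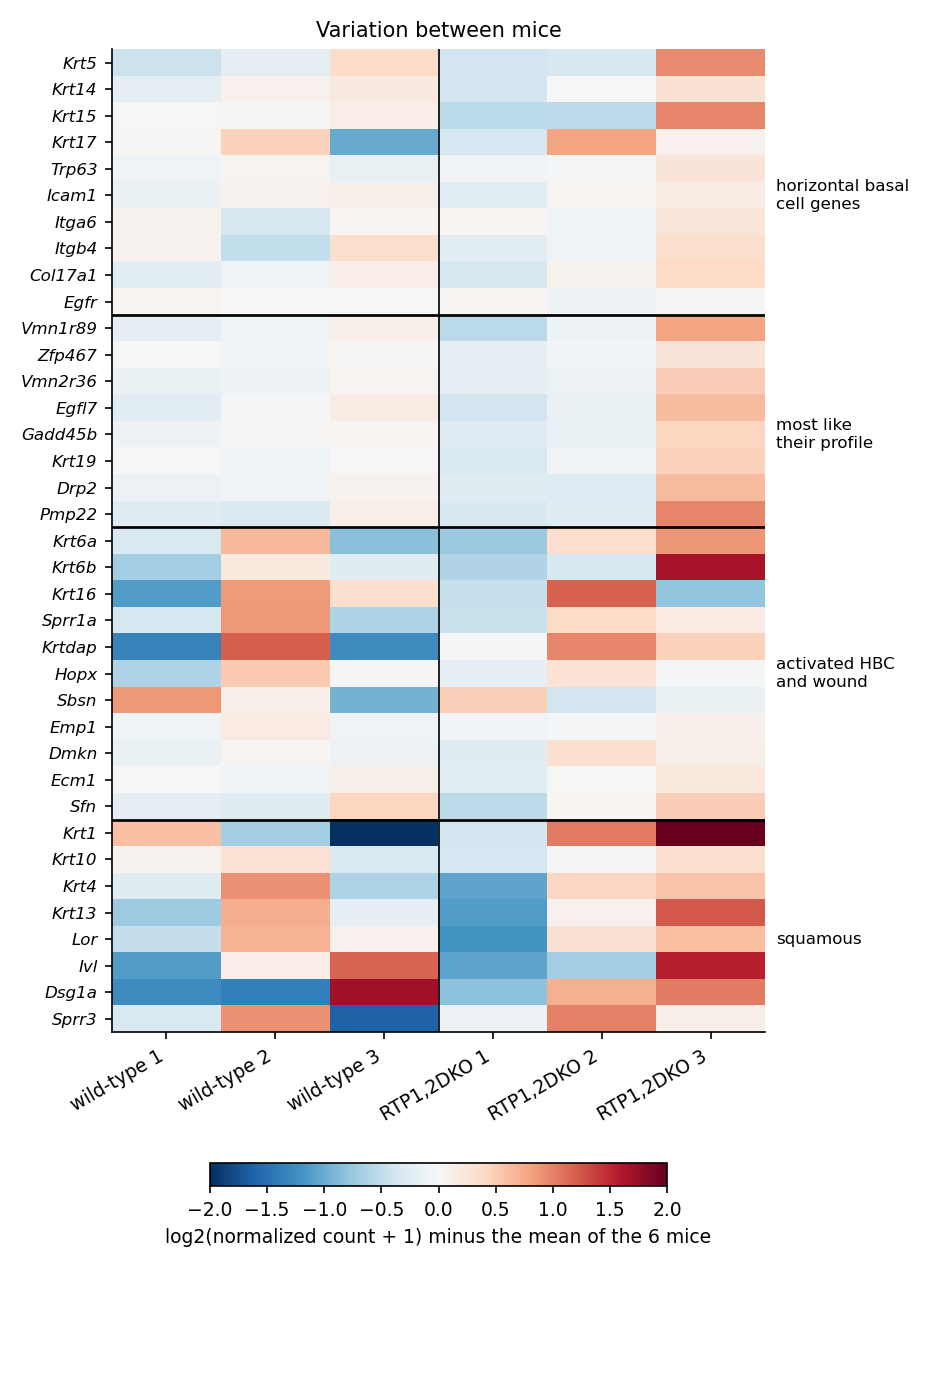
Log2(normalized count + 1) of each gene in each mouse minus the gene's mean over the 6 mice, as colours from -2 (blue) to 2 (red), for the HBC genes, the 8 genes most like their profile, the wound list and the squamous list. RTP1,2DKO mouse 3 is the highest for 7 of 10 genes, with Krt5 and Krt15 strongest, and Krt17 is highest in replicate 2 of each genotype.

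RTP1,2DKO mouse 3 was the highest of the 6 for 7 of the 10 genes, all but Krt17, Itgb4 and Egfr, and was the lowest for 0. Over all genes tested it was the highest for 16.4%. RTP1,2DKO mouse 1 was the lowest for 4 of the 10. Across the 6 mice Krt5 followed Krt15 (Pearson r = 0.89) and Col17a1 (0.89), Krt14 followed Icam1 (0.97) and Col17a1 (0.93), and Itga6 followed Itgb4 (0.82). Krt17 had no r above 0.44 with another HBC gene and ran against Itgb4 (-0.51), and Egfr ran apart from most as well. These correlations describe 6 libraries of 2 genotypes, and single mice weigh heavily in them.

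When the 10 genes were standardized and averaged, the mean level was -0.23, -0.19 and 0.12 SD in wild-type mice and -0.66, -0.23 and 1.20 SD in RTP1,2DKO mice. Of 15420 other genes with a mean of at least 50 normalized counts, those closest to this profile were Vmn1r89 (r = 0.991), Zfp467 (0.990), Vmn2r36 (0.987), Egfl7 (0.982), Gadd45b (0.981), Krt19 (0.979), Drp2 (0.975) and Pmp22 (0.974). Krt19, a keratin of simple and basal epithelium, had 1204, 1132 and 1207 normalized counts in the wild-type and 970.5, 1151 and 1655 in RTP1,2DKO. Pmp22, a gene of myelin and epithelium, had 1164, 1134 and 1495 against 1105, 1169 and 2712. Both were highest in RTP1,2DKO mouse 3, and neither passed the test (edgeR adjusted p = 0.914 and 0.69).

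A keratin of wounded or stratified epithelium, Krt6b, was high in this mouse too and is named here after its values were seen. It had 226.5, 414.1 and 306.5 normalized counts in the wild-type and 237.1, 288.7 and 1137 in RTP1,2DKO. Of 8 genes of squamous epithelium, which lines the front of the nose and also expresses Krt5, Krt14 and Trp63, 4 were highest in RTP1,2DKO mouse 3. Their summed level was 17.0 to 54.7 TPM in the wild-type and 19.0 to 39.0 TPM in RTP1,2DKO, and no marker was at 0 in all mice, though Ivl and Lor had group means of at most 7.1 normalized counts. The part of such tissue in the values of RTP1,2DKO mouse 3 was not tested.

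Genes that act with the HBC genes were taken from lists of partners and regulators. Of 12 hemidesmosome and laminin partners, 0 passed the edgeR test, 6 had changes above 0 and the median was 0.02. The most abundant were Itgb1, with 15085 ± 1276 normalized counts in the wild-type and 16962 ± 536 in RTP1,2DKO (log2 fold change 0.17, SE 0.12), and the tetraspanin gene Cd151 (0.16, SE 0.17). Of 10 EGFR ligands and receptors of its family, 0 passed and the median was -0.13, with Egf itself at 0.10 (SE 0.20) and the receptor gene Erbb3 at -0.16 (SE 0.19). Of 10 regulators of basal cells, among them the Notch pathway that keeps HBCs at rest, 0 passed and the median was 0. The p63 target Perp had 0.09 (SE 0.14) and the Notch target Hes1 had -0.04 (SE 0.16). Of 10 partners of ICAM1 and genes of the NF-κB pathway, which induces it, 0 passed and the median was 0.09, with Nfkbia at 0.01 (SE 0.17) and Tnfrsf1a at 0.00 (SE 0.13). At an unadjusted p of 0.05 the count was 0 in each of these 4 lists, and DESeq2 called 0 in each.

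Genes linked with activated HBCs and wounded epithelium gave no call either. Of 12 such genes, 11 were tested, since Sprr1b was listed at 0 in every mouse, and 0 passed the edgeR test, 0 had an unadjusted p under 0.05 and DESeq2 called 0. The median log2 fold change was 0.02. Hopx, a gene of HBCs activated by injury, had 1612 ± 617 normalized counts in the wild-type and 1631 ± 271 in RTP1,2DKO, and Dmkn, a gene of stratified epithelium, had 934 ± 64.6 and 1032 ± 199 (SD, n = 3 each). Their log2 fold changes were 0.02 (SE 0.22, 95% interval -0.47 to 0.50) and 0.14 (SE 0.15, 95% interval -0.18 to 0.47). Of the 11 genes, 5 (45.5%) were highest in replicate 2 of each genotype, the pattern of Krt17, against 11.4% of all genes. They were Krt16, Sprr1a, Krtdap, Hopx and Dmkn, of which only Hopx and Dmkn were named by the rule. Another 4 of the 11 (36.4%) were highest in RTP1,2DKO mouse 3, against 16.4% of all genes. Krt17 followed the squamous gene Sprr3 (r = 0.96) and Sprr1a (0.83) across the 6 mice, also picked after the values were seen.

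Genes of globose basal cells, of the cell cycle and of immature neurons were read from the same fit. The difference between these lists and the HBC genes was not tested. In whole tissue the cell cycle genes cannot be assigned to one type of dividing cell. Of 10 genes of globose basal cells and the cell cycle, 0 passed the edgeR test, 8 had an unadjusted p under 0.05 and all 8 were higher in RTP1,2DKO, against 4.58% of all genes in that direction. For 8 of the 10 every RTP1,2DKO mouse lay above every wild-type mouse, against 7.17% of all genes. The list was chosen with earlier results of these data known, so these counts describe it and do not test it. With the replicate number as a block 2 passed, Top2a and Ccnb1. DESeq2 also called 2 of the 10, and 1 passed the edgeR test without wild-type mouse 2. Top2a, a topoisomerase of dividing cells, had 2496, 2760 and 1976 normalized counts in the wild-type and 3895, 3594 and 2889 in RTP1,2DKO, without overlap (log2 fold change 0.52, SE 0.15, edgeR adjusted p = 0.099). Pcna, a clamp of the replication fork, had a change of 0.25 (SE 0.12, edgeR adjusted p = 0.45). The median over the 10 was 0.47, against 0.13 for the HBC genes and 0.02 for all genes.

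Among 8 genes of immature neurons 2 passed the edgeR test as higher in RTP1,2DKO, against 0.46% of all genes. They were Gap43 (0.58, SE 0.14, edgeR adjusted p = 0.0418) and Gng8 (0.91, SE 0.18, edgeR adjusted p = 0.0104). Gap43 encodes a protein of growing axons and Gng8 a G protein subunit of immature OSNs. With 1 mouse left out the count ran from 1 to 3, falling to 1 without wild-type mouse 2 or 3 or any single RTP1,2DKO mouse. It was 4 with the replicate number as a block and 4 with DESeq2. The median of the 8 was 0.29, with 6 changes above 0 and 2 below 0, the lowest at -0.25.

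**Figure D5:**
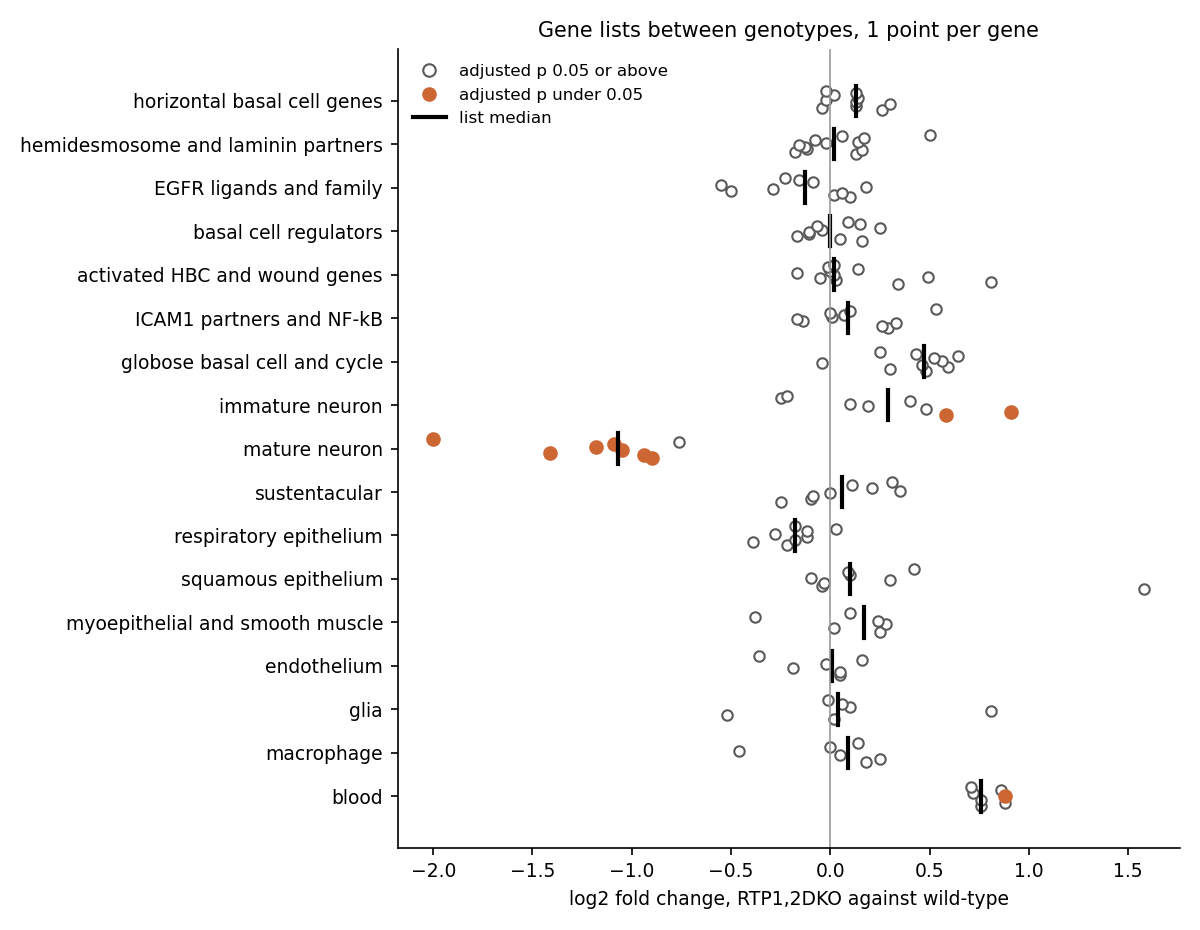
Log2 fold change (RTP1,2DKO minus wild-type) of every tested gene in each list, with 1 point per gene, filled where edgeR's adjusted p is under 0.05, and a bar at the list's median. The HBC genes lie between -0.04 and 0.30 with none filled, the globose basal cell and cycle list is centred at 0.47, and the mature neuron list at -1.07.

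Since the HBC genes are also expressed elsewhere in the mucosa, markers of the other cell types were read beside them. Among 8 sustentacular genes 0 passed the edgeR test (median 0.06), with the 2 most abundant, Gpx6 at 0.31 (SE 0.24) and Cyp2g1 at -0.25 (SE 0.19), overlapping between genotypes. For respiratory epithelium, which has basal cells of its own with Krt5 and Trp63, 0 of 8 passed (median -0.18), with Reg3g at 0.03 (SE 0.22) and Ltf at -0.18 (SE 0.23). Of these 8 changes 7 were below 0. For 2 of the 8 genes every RTP1,2DKO mouse lay below every wild-type mouse, against 2046 of the 22152 genes tested. The squamous list gave 0 of 8 (median 0.10), with Krt13 at 0.30 (SE 0.46) and Krt10 at -0.04 (SE 0.20). The myoepithelial and smooth muscle list, which matters because gland myoepithelium makes Krt5 and Krt14, gave 0 of 6 (median 0.17), with Acta2 at 0.25 (SE 0.12) and Tagln at 0.24 (SE 0.13). In this list 5 of the 6 changes were above 0. For 3 of the 6 genes every RTP1,2DKO mouse lay above every wild-type mouse, against 7.17% of all genes.

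Endothelium, where Icam1 and Itga6 are expressed, gave 0 of 6 (median 0.01), with Cldn5 at 0.16 (SE 0.17) and Cdh5 at 0.05 (SE 0.14). Glia gave 0 of 6 (median 0.04), with Fabp7 at 0.06 (SE 0.16), and without wild-type mouse 1 a single glial gene passed. Macrophages gave 0 of 6 (median 0.09), with C1qa at 0.00 (SE 0.25) and Csf1r at 0.05 (SE 0.13). Of 7 blood genes 1 passed the edgeR test as higher, against 0.46% of all genes, and the changes of all 7 were above 0. It was Hbb-bt (0.88, SE 0.22, edgeR adjusted p = 0.0485), whose edgeR adjusted p was 0.0506 with the replicate number as a block. Reads of globin genes are hard to assign to one of their near-identical copies. Of the 7, 0 passed without wild-type mouse 1, wild-type mouse 3, RTP1,2DKO mouse 1 or RTP1,2DKO mouse 2, while 5 passed without RTP1,2DKO mouse 3. The unadjusted p was under 0.05 for 1 sustentacular, 1 respiratory, 1 squamous, 1 endothelial and 1 glial gene and for 6 blood genes, and DESeq2 called 1 sustentacular and 2 blood genes. What share of each HBC gene's counts came from HBCs was not tested.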

How the data were processed

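RNA of whole olfactory mucosa was sequenced from 3 wild-type and 3 RTP1,2DKO mice, with groups and replicate numbers from the labels. The labels name a KAPA stranded kit and the methods an Illumina TruSeq stranded kit. The authors ran kallisto on mouse transcripts (mm10, per the submitters' processing notes; kallisto's version is not given in the sources used here) and deposited, per transcript, an estimated count, lengths and TPM. The deposited estimated counts were summed per gene and rounded to whole numbers, and the deposited TPM were summed per gene for levels only. No comparison of the authors' own was in the files.

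Normalized counts are gene sums divided by median-of-ratios size factors. All 22152 genes with at least 1 count were fitted with edgeR 4.0.16 (quasi-likelihood test) and DESeq2 1.42.0 size factors in R 4.3.3, with Benjamini-Hochberg adjustment at 0.05. Summaries used Python 3.11.15 and pandas 2.3.3, and figures matplotlib 3.10.9. Correlations used log2(normalized count + 1). In simulated counts with 200 changed genes among 21971, the test recovered 69% of 2-fold and 99% of 4-fold changes, and 13.8% of its calls were false, above the nominal level.

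The HBC genes and all lists were chosen with earlier results of these data known. The text names the 10 HBC genes, Rtp1 and Rtp2, the called genes of each list (otherwise its 2 most abundant by TPM), and the 8 genes closest to the HBC profile; Xist and the genes stated as picked later fall outside that rule, and a gene the rule takes is not reported here. Same-numbered mice deviated from their group means together (r = 0.139, 0.179 and 0.103 over 18133 genes with a mean of at least 10 counts), so the numbers were treated as pairs in the fit with a block; the labels do not state a pairing. Nothing says how the RNA of each mouse was batched. Alternatives were TMM, totals without Bpifb9b as size factors, edgeR's filterByExpr, DESeq2's Wald test, the replicate block, each mouse left out, TPM ratios, and a transcript fit added after the data were seen. Sequences with their positions, shared words and Trp63 starts came from GENCODE annotation of GRCm38, which may differ from the transcripts the authors used. Positions of whole genes came from RefSeq annotation of GRCm38.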

Additional observations from a re-analysis of the deposited data

How the results depend on the processing

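The count of HBC genes past the threshold was 0 under every alternative with a test, and all 10 genes kept their side of it. With the replicate number as a block, 1012 genes passed in place of 799, no call of an HBC gene changed, and Krt15 turned to -0.06; the globose basal cell list then had 2 calls, the immature neuron list 4 and the blood list 0. With 1 mouse left out, 598 to 777 genes passed, and the log2 fold change ranged from -0.31 to 0.52 for Krt5, -0.22 to 0.12 for Krt14, -0.56 to 0.38 for Krt15, -0.07 to 0.66 for Krt17, 0.01 to 0.19 for Trp63, -0.10 to 0.08 for Icam1, 0.02 to 0.21 for Itga6, -0.18 to 0.22 for Itgb4, -0.06 to 0.29 for Col17a1 and -0.05 to 0.02 for Egfr. In deposited TPM, where the median of all genes shifts to -0.22, the change was -0.18 for Krt15, -0.06 for Krt17, -0.17 for Trp63, -0.09 for Itga6, -0.19 for Itgb4 and -0.13 for Col17a1. DESeq2 passed 1112 of 19129 genes, with 2 globose basal cell and cycle, 4 immature neuron, 1 sustentacular and 2 blood genes among them. Size factors from totals without Bpifb9b, and filterByExpr, each left 1 immature neuron call and 0 blood calls. At this depth the HBC genes had 152 to 8407 normalized counts per mouse, and counting error weighs most on Icam1, the gene with the fewest. The cause of the changes with the setting was not tested.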
